A study of Rattus norvegicus with 6 samples.

Results

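The genes described here encode the machinery that copies DNA in S phase, from the factors that license replication origins to the polymerases, clamp, nucleotide enzymes and chromatin factors that work at the fork. They were chosen by name, as the 51 genes of a list of replication licensing, polymerase, clamp and nucleotide supply genes, and a gene entered when the count table held a row with its symbol. The list was drawn up with earlier results of these data known. Of the 51 genes, 50 had such a row among the 43035 features of the table, and Dna2 had none. A total of 32 of the 50 had enough counts to be tested among 15513 features. The labels give 1-day-old Sprague-Dawley rats, and the methods give an age range that starts at 1 day. The cells were primary cultures from their hearts, enriched for cardiomyocytes by differential attachment and kept in medium with 10% fetal bovine serum. Either scrambled siRNA (si-NC, n = 3 libraries) or siRNA against DYRK1A (si-DYRK1A, n = 3 libraries) had been transfected into them, and RNA was collected after 48 h. Per the labels the 3 libraries of a group are biological replicates, but which cultures or animals they came from is not given in the sources used here.

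In eukaryotic cells, origins are licensed in G1, when the origin recognition complex with Cdc6 and Cdt1 loads the hexameric MCM complex onto DNA, and geminin blocks this step later in the cycle. In S phase, Cdc45 and the GINS complex join MCM to form the active helicase, polymerase alpha-primase lays down primers, and polymerases delta and epsilon extend them while held to DNA by the PCNA clamp, which the RFC complex loads. Neonatal rodent cardiomyocytes soon leave the cell cycle, after which most genes of this machinery are held at low levels in the heart, and E2F transcription factors are known for driving them in cycling cells.

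The libraries held 10325074 to 11921772 counts each, which gave a biological coefficient of variation of 8.82% across features. The annotated Dyrk1a row held 7 counts in all 6 libraries together, and an unannotated transcript added over it by the authors stood at 77.7 ± 3.22 CPM (counts scaled to a library of 1000000 counts after TMM normalization) in si-NC and 82.4 ± 2.70 CPM in si-DYRK1A libraries (mean ± SD, n = 3, log2 fold change 0.084, adjusted p = 0.374 by edgeR). The annotated row was thus too low to test, and the transcript over it was not lower where the labels name the siRNA. Whether these rows measure the level of Dyrk1a was not tested, so they do not show whether the knockdown worked. Every direction below rests on the labels. Of 10 cardiomyocyte markers, Tnni3, Myh6 and Myh7 were at 0 in every library, 6 were tested and 3 were higher. Their summed level was 21088 to 22030 CPM in si-NC and 24139 to 25221 CPM in si-DYRK1A libraries. Most of it came from Actc1 (means of 9976 and 10880 CPM) and Nppa (7557 and 9782 CPM), both called higher. Myl3 was lower without overlap (2362 and 2188 CPM) but not called. The 8 fibroblast markers with a row summed to 21531 to 26245 and 20368 to 21107 CPM, with Pdgfra at 0 and 2 of 6 tested markers higher. Col1a1, the fibroblast marker with the highest level, was lower without overlap (14341 and 11113 CPM). It was not called by edgeR (adjusted p = 0.0869) but passed the threshold in DESeq2 (adjusted p = 0.0123). For 5 endothelial markers the sums were 163 to 179 and 130.4 to 137 CPM, and 3 of them were lower. Beside these counts of markers, 8.03% of all features tested were called higher and 7.19% lower in edgeR. The 5 smooth muscle markers, with Acta2, Myh11 and Smtn at 0, summed to 556 to 563 and 545 to 569 CPM, and the 7 macrophage markers, with Cd68 at 0, to 127 to 139 and 121 to 134 CPM, with none of either list called. Marker rows at 0 are not read as absent expression. A further edgeR fit added the counts of an unannotated transcript to the gene it covers, where it overlaps a single gene. The marker rows at 0 stayed too low to test in that fit, and transcripts over several genes were not added. The part of these cell type markers in the results on replication genes was not tested. In bulk samples, fewer cells of a type and less RNA per cell cannot be told apart.

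Promoters of S phase genes often hold E2F sites and CCAAT boxes, and 5 promoters of genes discussed below are shown first. Promoter windows of 300 bases, 250 before and 50 after the annotated start, were taken from RefSeq (GRCr8) for 45 of the 51 genes, and none was found in the table for Mcm4, Orc1, Cdc6, Gins4, Rpa3 and Rrm2. The E2F letters searched on both strands were TTTCCCGC, TTTGGCGC, TTTCGCGC and TTTGCCGC, which can overlap on opposite strands, and the CCAAT box was searched as CCAAT. The 150 bases just before the start are printed 5′ to 3′ for Mcm5 at chr19:13488663-13488812 on the + strand, Mcm6 at chr13:42404353-42404502 on the - strand and Gins1 at chr3:160184770-160184919 on the + strand, which were called higher in si-DYRK1A libraries, and for Mcm2 at chr4:122918095-122918244 on the - strand and Gins2 at chr19:65548053-65548202 on the - strand, partners of theirs that were not called. Capitals mark E2F and CCAAT letters on either strand.
Mcm5: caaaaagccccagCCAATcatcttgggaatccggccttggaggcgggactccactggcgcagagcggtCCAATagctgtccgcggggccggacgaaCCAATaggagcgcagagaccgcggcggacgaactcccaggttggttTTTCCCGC
Mcm6: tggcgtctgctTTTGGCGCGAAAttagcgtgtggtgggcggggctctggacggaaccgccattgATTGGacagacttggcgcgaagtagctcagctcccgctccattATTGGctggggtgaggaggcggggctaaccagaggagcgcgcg
Gins1: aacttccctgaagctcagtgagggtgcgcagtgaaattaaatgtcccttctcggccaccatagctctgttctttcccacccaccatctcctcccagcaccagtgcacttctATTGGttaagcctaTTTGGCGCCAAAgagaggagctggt
Mcm2: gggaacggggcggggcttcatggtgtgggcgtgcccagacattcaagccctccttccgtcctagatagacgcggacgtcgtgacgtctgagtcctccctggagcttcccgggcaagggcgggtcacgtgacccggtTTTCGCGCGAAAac
Gins2: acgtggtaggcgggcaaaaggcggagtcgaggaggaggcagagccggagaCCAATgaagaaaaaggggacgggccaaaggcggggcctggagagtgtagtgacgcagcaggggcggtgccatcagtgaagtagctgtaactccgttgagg

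The stretches of Mcm6, Gins1 and Mcm2 each held a pair of overlapping E2F matches, that of Mcm5 held 1, and that of Gins2 held none. Among the promoters of the 51 genes, 25 of 47 (53.2%) had an E2F match within the 300 bases. This stood against 254 of 7365 promoters (3.45%) of annotated genes that were tested. Counted by gene, with any of its promoters, it was 25 of 45 (55.6%). The shares of the 51 genes below are by gene, and those of tested genes by promoter. The match did not separate genes by their call, since 11 of 18 genes called higher (61.1%), 8 of 11 tested and not called (72.7%) and 5 of 15 not tested (33.3%) held one. CCAAT letters were present for 13 of 18, 5 of 11 and 7 of 15 genes in the same order (72.2%, 45.5% and 46.7%), against 37.6% of promoters of tested genes. Of the other letters searched, GGGCGG (the GC box) was found for 30 of 45 genes (66.7%, against 57.9%) and TTTGAA (the CHR element) for 6 of 45 (13.3%, against 12.0%). Split by call in the same order, GGGCGG was found for 10 of 18, 8 of 11 and 11 of 15 genes. TTTGAA was found for 2 of 18, 4 of 11 and 0 of 15 genes. Differences between these small groups were not tested. A match is a description of letters, not of a bound factor.

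**Figure D1:**
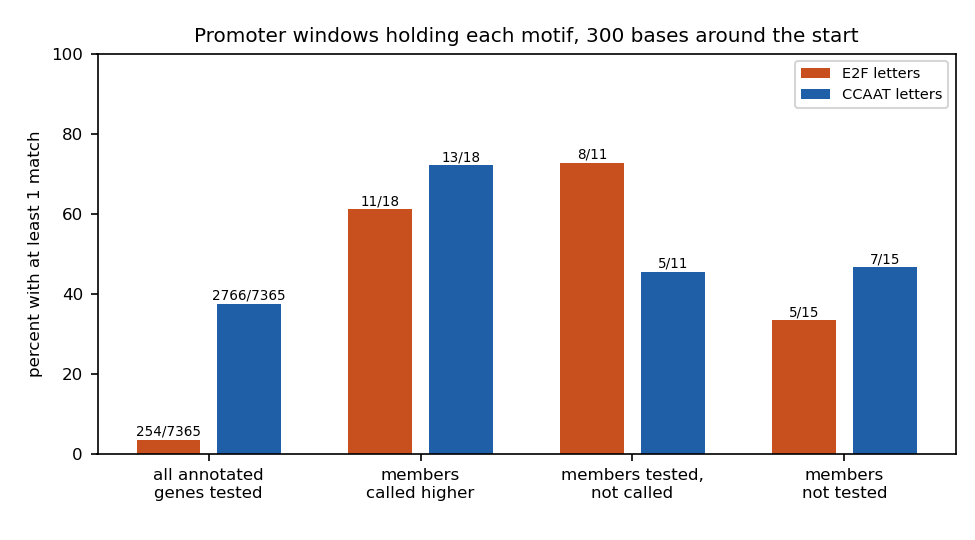
Percent with at least 1 match to the E2F or CCAAT letters in promoter windows (300 bases around the annotated start). All annotated genes tested are counted by promoter, and replication genes, split by their call, are counted by gene. The number matched and the number in each group stand above each bar. E2F letters were present in 3.45% of the promoters of tested genes, in 61.1% of replication genes called higher and in 72.7% of those tested and not called.

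Most of the measured replication genes were higher in the libraries labelled si-DYRK1A, by small amounts, and none was called lower. In edgeR (quasi-likelihood test, p-values adjusted over 15513 features, threshold 0.05), 20 of the 32 tested genes were higher and 12 were not called, against 8.03% of all features higher and 7.19% lower. Among the 8025 features with a mean of at least 10 CPM, 12.0% were higher and 11.2% lower. Because the list was drawn up with earlier results of these data known, these shares are given as a description. At an unadjusted p below 0.05, 24 of the 32 genes were higher and 0 lower, and DESeq2 called 15 higher and 0 lower (6.75% and 6.17% of its features). The log2 fold changes of the 20 genes ran from 0.16 to 0.43, and the median of all 32 was 0.27, beside a median of 0.0020 over all features. The 3 libraries of each group did not overlap for 24 of the 32 genes, all higher in si-DYRK1A, against 16.2% of all features separated in that direction and 15.3% in the other. Each of the 32 genes had at least 10 counts in every library. A total of 15 genes were called whichever library was left out, whereas Mcm4, Cdt1, Pola1, Rfc2 and Rpa3 lost the call in at least 1 of the 6 fits that left a library out, and also in DESeq2.

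The shift was shared by all 3 libraries labelled si-DYRK1A rather than carried by a single one. Summed over the 50 genes with a row, the level was 2361, 2356 and 2335 CPM in the si-NC libraries and 2858, 2764 and 2824 CPM in the si-DYRK1A libraries. Set against the si-NC mean of each gene, the median log2 difference over the 32 tested genes was 0.29, 0.25 and 0.28 in the si-DYRK1A libraries. In the si-NC libraries it was 0.0075, 0.00044 and -0.016, near 0 by construction because these libraries make up the mean. Of the 32 genes, 29 had their highest library in the si-DYRK1A group, 14 of them in replicate 1, 6 in replicate 2 and 9 in replicate 3. The lowest library was a si-NC library for 31 of the 32. Shares over all features for the highest and lowest library were not taken, so these counts are a description.

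**Figure D2:**
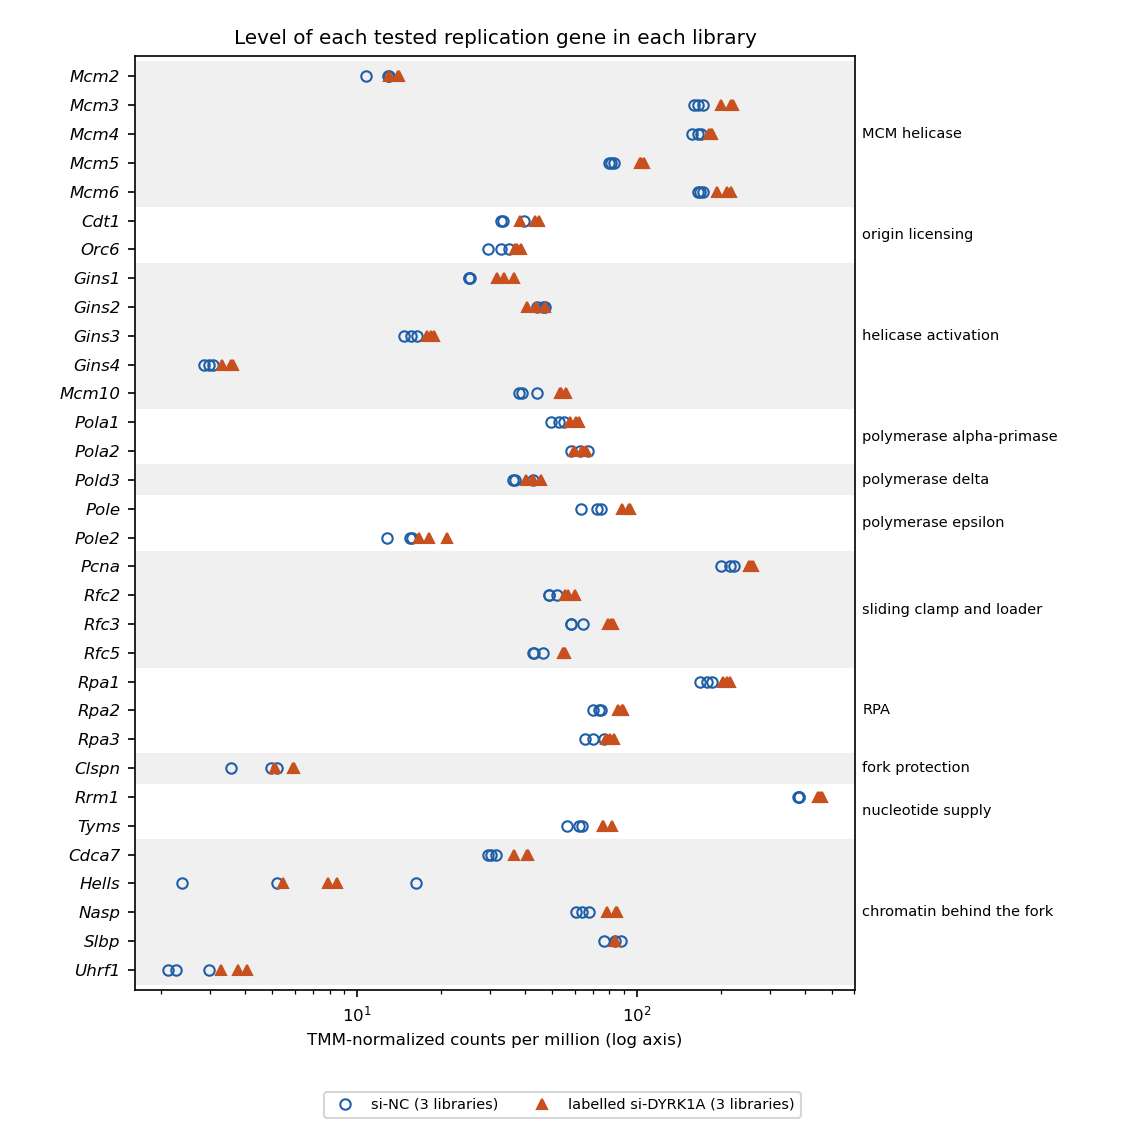
TMM-normalized CPM (horizontal log axis) of the 32 tested replication genes, grouped by complex, with open circles for the 3 si-NC libraries and triangles for the 3 libraries labelled si-DYRK1A. The levels ran from a few CPM (Uhrf1, Gins4, Clspn) to 380 to 460 CPM (Rrm1), and the triangles lie to the right of the circles without overlap for 24 of the 32 genes.

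The MCM hexamer, whose 6 subunits Mcm2 to Mcm7 form the motor of the replicative helicase, had 5 tested subunits, of which 4 were higher (median log2 fold change of the 5, 0.30). Mcm3 (ENSRNOG00000012543, chr9:26914057-26932201, - strand, positions here and below in Rnor_6.0) stood at 166, 173 and 161 CPM in si-NC replicates 1 to 3 and at 220.4, 199.7 and 217 CPM in si-DYRK1A replicates 1 to 3, with no overlap (log2 fold change 0.35, SE 0.050, adjusted p = 3.31e-05). Mcm5 (ENSRNOG00000014336, chr19:14523554-14561278, + strand) had 83.1, 79.9 and 81.1 CPM in si-NC and 104, 103 and 106 CPM in si-DYRK1A libraries (log2 fold change 0.36, SE 0.052, adjusted p = 4.57e-05). Levels of Mcm6 (ENSRNOG00000003703, chr13:45042882-45068077, - strand) were 169, 172 and 165 CPM against 218, 194 and 210.5 CPM, so that the lowest si-DYRK1A library still lay above every si-NC library (log2 fold change 0.30, SE 0.049, adjusted p = 0.000203). Mcm4 (ENSRNOG00000001833, chr11:89511191-89524892, + strand), which lies beside Mcm6 and Mcm7 in the ring, had the smallest estimate of the 4. Its levels were 166, 170.3 and 158 CPM and 184, 182 and 186 CPM (log2 fold change 0.16, SE 0.047, adjusted p = 0.0223), and the call rested on a close margin, since DESeq2 gave an adjusted p of 0.0571 and only 1 of the 6 fits that left out a library kept it. Mcm2 (ENSRNOG00000016316, chr4:120825699-120840111, - strand), the subunit that also carries histones, overlapped between groups, with 13.0, 10.8 and 13.0 CPM and 13.0, 14.2 and 14.0 CPM (log2 fold change 0.16, 95% interval -0.091 to 0.42, adjusted p = 0.423). Mcm7 had at most 11 counts in any library and was not tested.

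Of the loaders, only Cdt1 and Orc6 could be tested. Cdt1 (ENSRNOG00000013970, chr19:55381565-55386511, + strand), which brings MCM to the origin, had 32.9, 39.7 and 33.2 CPM in si-NC and 44.9, 43.3 and 38.4 CPM in si-DYRK1A libraries. The groups overlapped, through si-NC replicate 2 and si-DYRK1A replicate 3, and the call lay at the threshold (log2 fold change 0.26, SE 0.088, adjusted p = 0.0489 by edgeR, 0.135 by DESeq2). It was kept in 2 of the 6 fits that left out a library. Orc6 (ENSRNOG00000024043, chr19:27457474-27464805, - strand), the smallest subunit of the origin recognition complex, had 32.8, 29.4 and 35.1 CPM and 36.9, 38.8 and 37.5 CPM (log2 fold change 0.22, 95% interval 0.045 to 0.39, adjusted p = 0.0850), and passed the threshold only without si-NC replicate 3 (adjusted p = 0.0434 by edgeR). Orc1, Cdc6 and the licensing inhibitor geminin (Gmnn) were not tested, with at most 9 counts in any library.

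Among the factors that turn the loaded MCM ring into a moving helicase, 5 were tested and 2 were higher (median log2 fold change 0.24). The GINS complex is a tetramer of 4 different subunits, and 1 of the 4 was called. Gins1 (ENSRNOG00000008091, chr3:146695344-146716816, + strand) stood within 25.1 to 25.3 CPM in the si-NC libraries and at 36.5, 31.6 and 33.5 CPM in the si-DYRK1A libraries (log2 fold change 0.43, SE 0.085, adjusted p = 0.00136), which was the largest log2 fold change of the 20 genes called. Gins2 (ENSRNOG00000017575, chr19:54151048-54163608, - strand) had 46.1, 46.9 and 44.1 CPM in si-NC and 40.6, 43.6 and 47.0 CPM in si-DYRK1A libraries, with overlapping groups (log2 fold change -0.063, 95% interval -0.22 to 0.093, adjusted p = 0.645). The estimates of Gins3 and Gins4 lay between those of Gins1 and Gins2. Gins3 (ENSRNOG00000011863, chr19:9835057-9843673, - strand) had 15.6, 14.7 and 16.5 CPM and 18.5, 17.8 and 19.0 CPM, without overlap but not called (log2 fold change 0.24, 95% interval 0.022 to 0.46, adjusted p = 0.137), and Gins4 (ENSRNOG00000018040, chr16:73584521-73596793, + strand) had only about 3 CPM in every library (log2 fold change 0.24, 95% interval -0.24 to 0.71, adjusted p = 0.552). Mcm10 (ENSRNOG00000017981, chr17:77224112-77246478, + strand), which binds the assembled helicase and helps it open DNA, had 38.2, 44.1 and 38.9 CPM in si-NC and 55.8, 53.9 and 53.1 CPM in si-DYRK1A libraries. Every si-DYRK1A library was thus above the highest si-NC library (log2 fold change 0.42, SE 0.074, adjusted p = 0.000357). Cdc45 was at 0 in all 6 libraries.

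**Figure D3:**
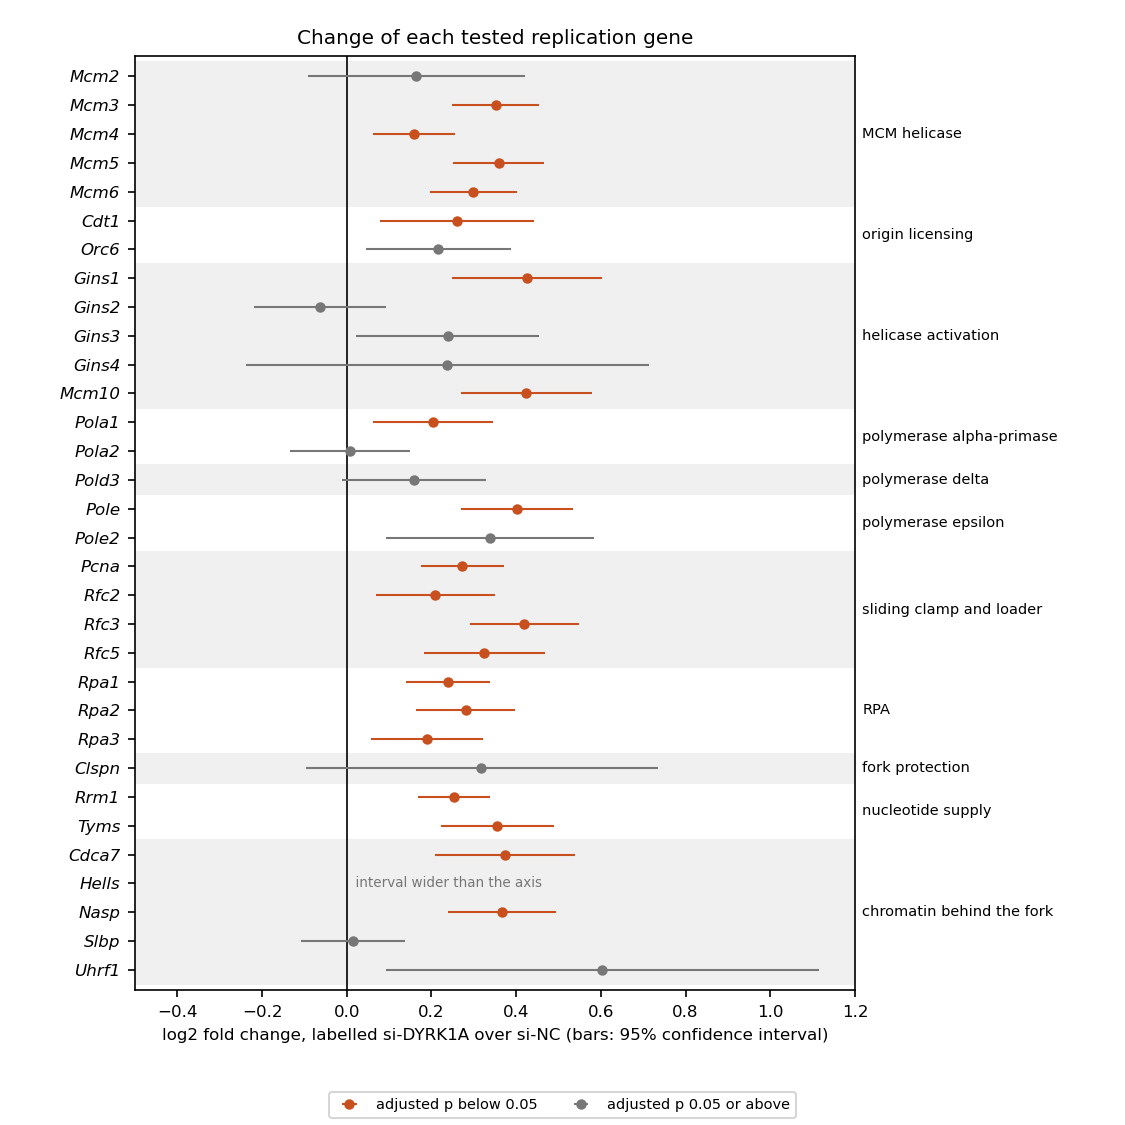
Log2 fold change of each tested replication gene in si-DYRK1A over si-NC libraries (horizontal axis), with bars for the 95% confidence interval and orange points for an adjusted p below 0.05 in edgeR. The 20 genes called lie between 0.16 and 0.43, and the gene left without a point is Hells, whose interval of -2.26 to 2.05 is wider than the axis.

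Of 5 tested subunits of the DNA polymerases, the catalytic subunits Pole and Pola1 were called higher. Polymerase epsilon extends the leading strand, and its catalytic subunit Pole (ENSRNOG00000037449, chr12:52403529-52452040, - strand) had 74.3, 72.1 and 63.4 CPM in si-NC and 94.4, 88.3 and 94.2 CPM in si-DYRK1A libraries, without overlap (log2 fold change 0.40, SE 0.063, adjusted p = 0.000120). Its accessory subunit Pole2 (ENSRNOG00000004242, chr6:91494393-91518996, - strand) had 12.8, 15.6 and 15.8 CPM and 21.1, 16.8 and 18.1 CPM, which did not overlap, but it missed the threshold (log2 fold change 0.34, SE 0.12, adjusted p = 0.0578). Polymerase alpha with its primase starts each new strand. Its catalytic subunit Pola1 (ENSRNOG00000013322, chrX:62382608-62698830, - strand) had 55.2, 52.6 and 49.4 CPM in si-NC and 60.7, 57.7 and 62.5 CPM in si-DYRK1A libraries (log2 fold change 0.20, SE 0.068, adjusted p = 0.0468 by edgeR, 0.137 by DESeq2), and kept the call in 1 of the 6 fits that left out a library. The accessory subunit Pola2 (ENSRNOG00000020906, chr1:221273538-221321570, - strand) overlapped between groups, with 58.3, 67.1 and 63.0 CPM and 65.8, 64.0 and 59.8 CPM, and its interval bounded any change to a narrow range (log2 fold change 0.0081, 95% interval -0.13 to 0.15, adjusted p = 0.960). Of polymerase delta, which copies the lagging strand, only Pold3 (ENSRNOG00000018411, chr1:165083622-165123455, - strand) was tested, with 42.5, 36.8 and 36.0 CPM and 40.3, 42.8 and 45.5 CPM and overlapping groups (log2 fold change 0.16, 95% interval -0.011 to 0.33, adjusted p = 0.216). The primase subunits Prim1 and Prim2 and the polymerase delta subunits Pold1 and Pold2 had at most 5 counts in any library.

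Each tested member of the clamp, its loader and the single-strand binding protein was called higher. PCNA is the ring that tethers polymerases to DNA, and Pcna (ENSRNOG00000021264, chr3:124880698-124884570, - strand) had 215, 199.8 and 222 CPM in si-NC and 261, 256 and 253 CPM in si-DYRK1A libraries (log2 fold change 0.27, SE 0.047, adjusted p = 0.000314). Of the RFC clamp loader, Rfc3 (ENSRNOG00000001088, chr12:1460538-1471357, + strand) had 58.1, 58.5 and 64.6 CPM and 79.2, 82.4 and 80.8 CPM, with a wide gap between the groups (log2 fold change 0.42, SE 0.062, adjusted p = 5.45e-05). Rfc5 (ENSRNOG00000001134, chr12:44931494-44941324, + strand) had 42.5, 46.4 and 43.1 CPM in si-NC and 55.5, 54.7 and 55.1 CPM in si-DYRK1A libraries (log2 fold change 0.32, SE 0.069, adjusted p = 0.00223). The subunit Rfc2 (ENSRNOG00000001457, chr12:25130377-25143480, - strand) rose least, from 48.7, 48.8 and 51.8 CPM to 56.7, 55.6 and 60.4 CPM (log2 fold change 0.21, SE 0.068, adjusted p = 0.0397 by edgeR, 0.125 by DESeq2), and only 1 of the 6 fits that left out a library kept its call. Rfc1 and Rfc4 were at 0 in all 6 libraries.

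RPA, a trimer that coats exposed single-stranded DNA, had all 3 subunits called higher (median log2 fold change 0.24). Rpa1 (ENSRNOG00000003123, chr10:62140419-62191512, - strand), the large subunit, had 179, 186 and 168 CPM in si-NC and 215, 204 and 210.5 CPM in si-DYRK1A libraries (log2 fold change 0.24, SE 0.048, adjusted p = 0.00140). Rpa2 (ENSRNOG00000013005, chr5:150957001-150968269, + strand) had 74.7, 73.1 and 69.7 CPM and 89.1, 86.0 and 89.0 CPM, and its groups were as clearly separated (log2 fold change 0.28, SE 0.056, adjusted p = 0.00138). For Rpa3 (ENSRNOG00000008309, chr4:34279320-34282351, - strand), the smallest subunit, the values were 69.8, 65.2 and 76.2 CPM and 82.8, 80.1 and 77.8 CPM, so that si-NC replicate 3 and si-DYRK1A replicate 3 nearly met (log2 fold change 0.19, SE 0.064, adjusted p = 0.0486 by edgeR, 0.138 by DESeq2, kept in 1 of 6 fits that left out a library). None of the lagging strand enzymes Fen1, Lig1 and Rnaseh2a had a count in any library. In the fork protection complex, Timeless and Tipin had at most 3 counts in any library, and Clspn (ENSRNOG00000011332, chr5:144581427-144616335, + strand), the adaptor of the S phase checkpoint, had 5.18, 3.55 and 4.93 CPM and 5.10, 5.93 and 5.97 CPM with overlapping groups (log2 fold change 0.32, 95% interval -0.097 to 0.73, adjusted p = 0.328).

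Both tested enzymes of nucleotide supply were higher. Rrm1 (ENSRNOG00000045752, chr1:167538263-167562688, + strand), the large subunit of ribonucleotide reductase, was the gene of the list with most counts. Its levels were 380.3, 378 and 379.7 CPM in si-NC and 460.4, 446 and 451 CPM in si-DYRK1A libraries, so the difference far exceeded the spread within groups (log2 fold change 0.25, SE 0.041, adjusted p = 0.000143). Tyms (ENSRNOG00000037225, chr9:121918947-121931564, - strand), which makes thymidylate, had 64.0, 62.1 and 56.5 CPM and 75.9, 75.8 and 81.7 CPM (log2 fold change 0.36, SE 0.064, adjusted p = 0.000503). The small subunit Rrm2 had no counts of its own. Among chromatin factors that act behind the fork, 2 of 5 tested were higher. Nasp (ENSRNOG00000016454, chr5:135446962-135472116, - strand), a chaperone of histone H3 and H4, had 63.7, 60.9 and 67.6 CPM in si-NC and 84.3, 84.8 and 78.6 CPM in si-DYRK1A libraries (log2 fold change 0.37, SE 0.062, adjusted p = 0.000238). Cdca7 (ENSRNOG00000001514, chr3:59153280-59163913, + strand), the partner that recruits the remodeller Hells to nucleosomes, had 29.5, 30.1 and 31.4 CPM and 40.5, 40.9 and 36.6 CPM (log2 fold change 0.37, SE 0.080, adjusted p = 0.00241). Slbp (ENSRNOG00000037162, chr14:82356916-82366368, + strand), which binds the stem-loop of replication-dependent histone mRNAs, overlapped between groups at 76.6, 83.7 and 88.2 CPM and 83.8, 83.4 and 83.9 CPM (log2 fold change 0.014, 95% interval -0.11 to 0.14, adjusted p = 0.915).

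The other chromatin factors were too low or too uneven for a call. Uhrf1 (ENSRNOG00000048411, chr9:10738222-10757954, - strand), which guides Dnmt1 to newly copied DNA, had 2.97, 2.11 and 2.26 CPM in si-NC and 3.78, 4.05 and 3.29 CPM in si-DYRK1A libraries, without overlap but with a wide interval (log2 fold change 0.60, 95% interval 0.091 to 1.12, adjusted p = 0.110). Hells (ENSRNOG00000047104, chr1:257766691-257949183, + strand) had 16.3, 2.37 and 5.18 CPM in si-NC libraries, where replicate 1 stood far above its partners, and 5.45, 7.91 and 8.48 CPM in si-DYRK1A libraries (log2 fold change -0.11, 95% interval -2.26 to 2.05, adjusted p = 0.956). Without si-NC replicate 1 its log2 fold change was 0.94 with an adjusted p of 0.0750 by edgeR, and its direction also turned under other settings. An unannotated transcript over Hells had 52, 8 and 6 counts in si-NC and 77, 3 and 4 counts in si-DYRK1A libraries, with replicate 1 highest in both groups. Chaf1b, the middle subunit of chromatin assembly factor 1, had at most 2 counts in any library.

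Levels between genes were compared per length, on the FPKM scale deposited by the authors. In si-NC libraries Pcna was highest (182 ± 9.45 FPKM, mean ± SD, n = 3), followed by Rpa3 (113 ± 8.76 FPKM) and Rrm1 (98.0 ± 0.101 FPKM). Next came Mcm6 (57.5 ± 1.24 FPKM), Mcm3 (56.5 ± 2.12 FPKM), Slbp (49.7 ± 3.61 FPKM) and Mcm4 (49.0 ± 1.92 FPKM), of which Mcm6 and Mcm3 lay within 1 SD of each other, as did Slbp and Mcm4. Mcm5 had 25.6 ± 0.430 FPKM and Mcm2 3.74 ± 0.374 FPKM, although the subunits assemble in equal numbers. Gins1 (23.3 ± 0.147 FPKM), Gins2 (10.8 ± 0.360 FPKM), Gins3 (6.49 ± 0.357 FPKM) and Gins4 (2.79 ± 0.102 FPKM) were likewise spread over a wide range in si-NC libraries. The lowest tested genes were Clspn (0.896 ± 0.170 FPKM) and Uhrf1 (0.631 ± 0.116 FPKM). Mcm2, Gins4, Clspn and Uhrf1 lie under unannotated transcripts described below, and whether reads had been lost from their rows was not tested.

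Because subunits of a complex are needed together, ratios of FPKM values within a library were also taken, for pairs chosen after the values had been seen and therefore given as a description. The ratio of Gins1 to Gins2 was 2.12, 2.09 and 2.24 in the si-NC libraries and 3.50, 2.82 and 2.77 in the si-DYRK1A libraries, and it did not overlap. The ratio of Gins3 to Gins2 likewise moved, from 0.594, 0.550 and 0.656 to 0.797, 0.716 and 0.707. Against Mcm4, the subunit with the smallest called change, the ratio of Mcm5 was 0.529, 0.495 and 0.542 in si-NC and 0.596, 0.599 and 0.601 in si-DYRK1A libraries, again without overlap. The means of Mcm3 to Mcm4 (1.15 and 1.31), Mcm6 to Mcm4 (1.17 and 1.29), Mcm3 to Mcm6 (0.982 and 1.02) and Rfc3 to Rfc2 (1.43 and 1.65) also differed without overlap. Each of the 7 pairs without overlap had an exact permutation p of 0.1, the smallest possible with 3 libraries per group. How often other pairs of genes separate was not tested. The groups overlapped in the other 3 of the 10 pairs taken. The ratio of Rpa1 to Rpa2 was 0.838, 0.888 and 0.845 and 0.843, 0.830 and 0.827, that of Pola1 to Pola2 was 0.469, 0.388 and 0.389 and 0.457, 0.447 and 0.518, and the means of Pole to Pole2 were 1.15 and 1.19.

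**Figure D4:**
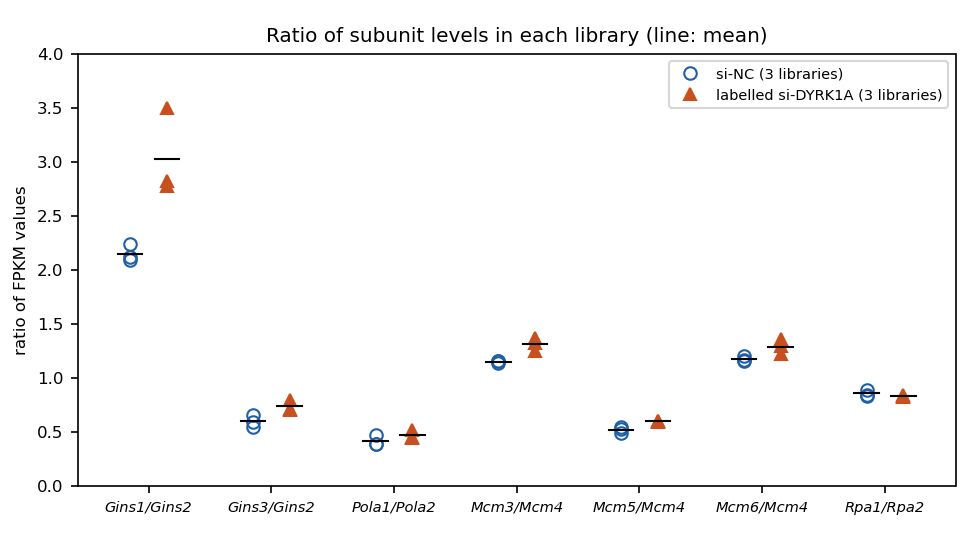
Ratio of the FPKM values of subunit pairs (vertical axis) in each of 3 si-NC libraries (circles) and 3 si-DYRK1A libraries (triangles), with a line at the mean of each group. The ratio of Gins1 to Gins2 rises from a mean of 2.15 to 3.03 without overlap, and that of Rpa1 to Rpa2 has means of 0.857 and 0.833 with overlapping groups.

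The genes that could not be tested share their position in the table. Of the 50 genes with a row, 24 were covered over at least 50% of their length by a transcript on the same strand that the authors had added to the annotation, and 18 of these 24 were not tested, against 0 of the 26 that were not covered. The 18 were Mcm7, Orc1, Cdc6, Gmnn, Cdc45, Prim1, Prim2, Pold1, Pold2, Rfc1, Rfc4, Fen1, Lig1, Rnaseh2a, Timeless, Tipin, Rrm2 and Chaf1b. Each had at most 11 counts in any library, and 10 had none in all 6. The 26 genes without such cover had mean levels of 14.7 to 379 CPM in si-NC, and 19 of them were called higher. The 6 covered genes that were tested were Mcm2, Gins4, Clspn, Uhrf1, Hells and Nasp, of which Nasp was called higher. Whether reads that fall on both rows had been dropped in the authors' counting was not tested. Low counts in these rows are therefore not read as low expression.

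**Figure D5:**
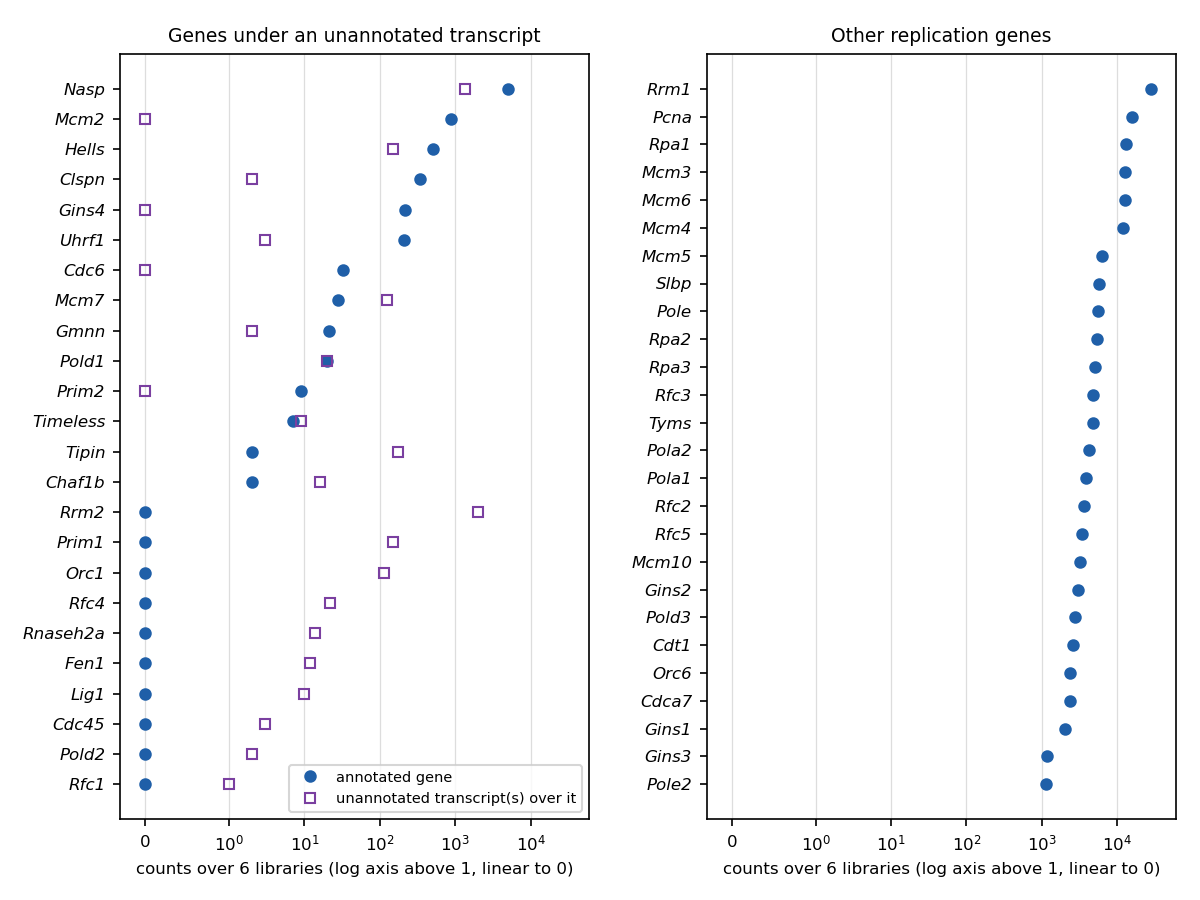
Counts summed over the 6 libraries (horizontal axis, logarithmic above 1 and linear down to 0) of the annotated gene (circles) and of the unannotated transcripts over it (squares), for 24 replication genes covered over at least 50% of their length (left) and for the 26 others (right). Of the covered genes, 10 sit at 0 and 18 were too low to be tested, whereas each of the 26 others was tested.

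The unannotated transcripts that cover these genes were examined separately, and 7 of them had enough counts. Beside background shares of 8.03% higher and 7.19% lower, 1 of the 7 was higher in edgeR and 0 were lower, also at an unadjusted p below 0.05, and DESeq2 called none of the 3 it gave an adjusted p. The transcript over Nasp (chr5:135446481-135471749) was the one called. It had 19.3, 16.0 and 18.5 CPM in si-NC and 20.5, 22.2 and 24.0 CPM in si-DYRK1A libraries (log2 fold change 0.31, SE 0.10, adjusted p = 0.0466), and it lost the call under most other settings, including 5 of the 6 fits that left out a library. The transcript over Rrm2 (chr6:43837743-43890718), which also spans Klf11, had the most counts. Its levels were 31.5, 26.0 and 28.4 CPM and 31.9, 31.0 and 28.4 CPM with overlapping groups (log2 fold change 0.087, 95% interval -0.10 to 0.28, adjusted p = 0.589). The remaining 5 had few counts. Over Prim1 (chr7:2435500-2451758) the levels were 2.01, 1.78 and 1.76 CPM and 3.17, 2.07 and 2.42 CPM (log2 fold change 0.47, adjusted p = 0.313). Over Orc1 (chr5:128186670-128211575) the estimate of 0.53 came from 1 si-DYRK1A library at 3.20 CPM, the other libraries having 1.15 to 1.51 CPM (adjusted p = 0.387). The transcript over Mcm7 (chr12:19306607-19313183), which also spans the microRNA genes Mir25, Mir93 and Mir106b, had a log2 fold change of 0.15 (adjusted p = 0.814), and that over Tipin (chr8:69748700-69768646), which spans SCARNA14, of 0.31 (adjusted p = 0.551). A transcript over the end of Pola2 (chr1:221272353-221281180), which also spans Cdc42ep2, had a negative estimate, with 2.49, 2.03 and 2.59 CPM and 1.41, 1.79 and 1.47 CPM (log2 fold change -0.61, adjusted p = 0.197).

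A further list, also drawn up with earlier results of these data known, held 33 replication genes outside the 51. Of its 20 tested genes, 7 were higher and 0 lower (12 higher and 0 lower at an unadjusted p below 0.05 in edgeR, 6 and 0 in DESeq2), beside the 8.03% and 7.19% of all features given above. The firing factors Cdc7, the kinase that acts on the loaded MCM ring, and Ticrr, which helps load Cdc45, were higher (log2 fold change 0.23, SE 0.073, adjusted p = 0.0339 for Cdc7, and log2 fold change 0.38, SE 0.085, adjusted p = 0.00316 for Ticrr). The call of Cdc7 was kept in 1 of the 6 fits that left out a library, and DESeq2 gave it an adjusted p of 0.124. Of the chromatin factors, Chaf1a, the large subunit of chromatin assembly factor 1, rose from 71.1, 78.7 and 66.7 CPM to 99.2, 92.4 and 95.6 CPM (log2 fold change 0.41, SE 0.063, adjusted p = 8.72e-05). The histone chaperone Asf1b was also higher (log2 fold change 0.40, SE 0.081, adjusted p = 0.00135), whereas its paralog Asf1a was not called (log2 fold change 0.15, 95% interval 0.026 to 0.28, adjusted p = 0.102). Top2a, the topoisomerase that untangles copied chromosomes, had 311, 309.5 and 327 CPM in si-NC and 425, 386 and 406 CPM in si-DYRK1A libraries (log2 fold change 0.36, SE 0.046, adjusted p = 8.85e-06). Thymidine kinase Tk1 was higher by a smaller estimate (log2 fold change 0.19, SE 0.050, adjusted p = 0.0106). Pole3, a histone-fold subunit of polymerase epsilon, was called (log2 fold change 0.52, SE 0.10, adjusted p = 0.00128), but its row is a stretch inside a long unannotated transcript over Myh9, so its counts are uncertain.

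The other 13 tested genes of that list were not called. Orc2 (68.7, 65.2 and 75.0 CPM and 71.2, 73.3 and 70.9 CPM, log2 fold change 0.044, 95% interval -0.088 to 0.18, adjusted p = 0.712) and Orc4 (log2 fold change 0.061, 95% interval -0.077 to 0.20, adjusted p = 0.609) overlapped between groups, as did Pole4 (log2 fold change -0.014, 95% interval -0.13 to 0.098, adjusted p = 0.907). The maintenance methyltransferase Dnmt1 (log2 fold change 0.099, 95% interval 0.00037 to 0.20, adjusted p = 0.181) and the MCM binding protein Mcmbp (log2 fold change 0.11, 95% interval 0.0048 to 0.22, adjusted p = 0.161) did not reach the threshold. Further tested genes without a call were Skp2, Dscc1, Rnaseh2b, Rnaseh2c, Dck and Dtymk, with log2 fold changes of 0.027 to 0.49. Of the 13 not tested, all of which lie under an unannotated transcript, 8 had no counts. Of 11 tested unannotated transcripts over genes of the list, 4 were higher and 0 lower in edgeR (5 and 0 at an unadjusted p below 0.05). Over all features, 8.03% were higher and 7.19% lower in edgeR. These were the ones over Dtl (log2 fold change 0.73, SE 0.15, adjusted p = 0.00180), a ubiquitin ligase subunit that removes Cdt1 in S phase, over Dut (log2 fold change 0.55, SE 0.10, adjusted p = 0.000597), which keeps uracil out of DNA, over Topbp1 (log2 fold change 0.33, SE 0.079, adjusted p = 0.00638), which activates the helicase, and over Atad5 (log2 fold change 0.65, SE 0.18, adjusted p = 0.0152), which unloads PCNA. The call over Atad5 was lost in DESeq2 (adjusted p = 0.0513) and in 3 of the 6 fits that left out a library. Those over Orc3 (log2 fold change 0.20, 95% interval 0.012 to 0.39, adjusted p = 0.153) and Top1 (log2 fold change 0.0059, 95% interval -0.13 to 0.14, adjusted p = 0.970) were not called. The rest, also not called, had negative log2 fold changes. These were the transcripts over Pole3 (-0.17), Samhd1 (-0.16), Dbf4 (-0.15), Rrm2b (-0.053) and Orc5 (-0.043).

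By complex, the share of tested genes called higher was 4 of 5 for MCM, 1 of 2 for the loaders, 2 of 5 for helicase activation, 1 of 2 for polymerase alpha-primase, 0 of 1 for polymerase delta, 1 of 2 for polymerase epsilon, 4 of 4 for clamp and loader, 3 of 3 for RPA, 0 of 1 for fork protection, 2 of 2 for nucleotide supply and 2 of 5 for chromatin factors. Medians of the log2 fold changes lay between 0.11 (polymerase alpha-primase) and 0.37 (polymerase epsilon and chromatin factors). Over all features tested, 8.03% were called higher. The calls of Mcm4, Cdt1, Pola1, Rfc2 and Rpa3, counted in these shares, were lost in DESeq2. Differences between complexes were not tested.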

How the data were processed

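RNA-seq of 6 libraries was used, 3 si-NC and 3 si-DYRK1A, grouped and numbered by the sample labels. The authors mapped reads to Rnor_6.0 with HISAT2 according to the methods, whereas the submitters' processing notes name Bowtie 0.12.2 and mm8, and the positions in the files are those of rat. The authors deposited raw counts for 32883 annotated and 10152 unannotated features, the latter with 17.2% to 17.5% of the counts. FPKM values (per length, scaled within each library) were likewise deposited. Not given in the sources used here are the counting tool, annotation release and strand setting. Each column of values matched 1 library.

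Counts were tested with edgeR 4.0.16 (quasi-likelihood, robust, TMM) in R 4.3.3 after filterByExpr (minimum count 10, minimum total 15), with Benjamini-Hochberg adjustment over 15513 features and a threshold of 0.05. DESeq2 1.42.0 and limma 3.58.1 served as alternatives. The fits were also run on simulated data, where the set changes were larger than those of the replication genes called. How well changes of that smaller size are recovered was not tested. P-values measure the spread between these libraries, and positions are in Rnor_6.0 except for RefSeq promoters (GRCr8). Genes called, those that DESeq2 changed and the gene with most counts of each complex without a call were named with full values. The 51 genes and the lists were chosen with earlier results of these data known. One gene of the further list is not reported here.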

Additional observations from a re-analysis of the deposited data

How the results depend on the processing

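Of the 51 genes, 32 to 40 were tested under each setting run, and none was called lower under any of them. The 20 calls of higher level numbered 17 with RLE size factors, 19 with upper-quartile normalization, 15 with library size only, 15 in DESeq2, 16 in limma-voom, 18 without a filter on low counts, 19 with at least 10 counts in every library, 18 with genes and covering transcripts summed, 15 on log2(FPKM + 1) or log2(FPKM + 0.1) in limma, 15 at an adjusted p below 0.01 and 15 to 18 without 1 library. They numbered 9 on log2(FPKM + 1) without a filter, where more features were tested. The 7 calls among other replication genes were 2 on log2(FPKM + 1) without a filter, 11 with covering transcripts summed (28 genes tested) and 5 to 7 without 1 library. The 1 call among unannotated transcripts over the genes became 0 with upper-quartile normalization, with library size only, in DESeq2, in limma-voom, without a filter, at an adjusted p below 0.01 and on all FPKM scales, and ranged from 0 to 1 without 1 library, being kept only without si-DYRK1A replicate 1. The cause was not tested.

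Libraries with the same replicate number did not deviate together (correlations of 0.058, -0.026 and -0.0041), so the numbers were not taken as pairs. With the replicate number as a block, 18 genes, 0 unannotated transcripts over them and 6 other replication genes were higher.

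Log2 fold changes that turned sign belonged to genes without a call. Pola2 was -0.018 with library size only, -0.0013 without a filter and -0.043 to 0.056 without 1 library. Hells was 0.34 in limma-voom, 0.15 with the replicate block, 0.12 on log2(FPKM + 1) with and without a filter, 0.26 on log2(FPKM + 0.1) and -0.55 to 0.94 without 1 library. Slbp was -0.012 with library size only and -0.040 to 0.054 without 1 library. The transcript over Top1 was -0.020 with library size only, -0.0034 without a filter and -0.069 to 0.073 without 1 library. Without 1 library, Orc2 ranged from -0.0045 to 0.094, Pole4 from -0.065 to 0.014, Dck from -0.016 to 0.058, Dtymk from -0.076 to 0.25, and the transcripts over Mcm7 from -0.0043 to 0.25, over Orc1 from -0.0034 to 0.79, over Orc5 from -0.18 to 0.14 and over Rrm2b from -0.090 to 0.011. Of all values for single features, 1158 kept direction and call, 119 lost the call, 3 gained it and 31 turned sign. At this depth, features under about 10 counts in 3 libraries could not be tested.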
